A study of Homo sapiens with 16 samples.

Results

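The genes described here are 66 protein-coding genes whose RNA was nearly gone from K562 cells after 24 h of treatment with phorbol 12-myristate 13-acetate (PMA) and had not come back by 72 h. K562 is an established human leukaemia line, wild type in this series, and PMA is a phorbol ester that activates protein kinase C and pushes these cells toward a megakaryocyte-like state. RNA was taken before PMA (0 h), then within the first hours of 25 nM PMA (after 0.5, 1.5 and 3 h, and again after 6 h), and after 24, 48 and 72 h, with fresh medium given after 24 h and after 48 h. Each time point had 2 libraries of total RNA depleted of ribosomal RNA, 16 in all, and the labels do not say that they came from separate cultures, so the p-values measure the spread between these libraries. There was no arm without PMA at the later times, so hours in culture and hours in PMA cannot be told apart.

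Levels are given as CPM, the estimated reads of a gene scaled to a fixed total for its library. A gene belongs to the group if it had at least 10 CPM in both 0 h libraries and if its mean at each of 24, 48 and 72 h was at most 0.15 of its 0 h mean. Of 35052 genes with a matched transcript, 9307 were protein coding and reached 10 CPM at 0 h, and 66 of those (0.709%) met all 3 limits. The low levels at 24, 48 and 72 h are therefore how the genes were found and not a result. Tests were run only between the libraries of 0.5, 1.5, 3 and 6 h, which took no part in the choice. These times lie between 0 and 24 h, over which the rule required a fall. A fall among them was therefore likely from the choice, and the tests bear on when it came. With 2 libraries a group, no exact permutation test can give a p under 0.05, so these tests rest on a spread shared across genes and libraries in edgeR's quasi-likelihood fit, with Benjamini-Hochberg adjustment over all 17559 genes tested.

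The libraries held 27285773 to 54056289 estimated reads, and 3 reads, the most that a count of 0 allows for, corresponded to 0.0555 to 0.110 CPM. Each member had at least 325 estimated reads in each 0 h library. All 9 K562 markers, which include the fetal globins, GATA1, TAL1 and KLF1, were present at 1 CPM or more at each time. Their summed level was nevertheless lower later, at 2180 to 2388 CPM at 0 h, 1098 to 1235 after 24 h and 1481 to 1865 after 72 h. KLF1 is itself a member of the group. The summed level of 6 megakaryocyte markers went from 68.4 to 75.9 CPM at 0 h to 5390 to 5867 CPM after 72 h. Of the markers of other cells, the sum of 4 fibroblast genes went from 12.4 to 14.2 CPM to 207 to 236 CPM. The sum of 4 neutrophil genes went from 0.372 to 0.376 CPM to 22.4 to 22.7 CPM, with ELANE at 0 in the 0 and 72 h libraries. Only 1 of these 4 neutrophil genes was at 1 CPM or more after 72 h, so that rise was not one of the set. The summed level of 6 monocyte genes went from 145 to 163 CPM at 0 h to 207 to 246 CPM after 72 h, and that of 4 T cell genes from 8.82 to 11.03 CPM to 17.2 to 18.1 CPM, with CD2 at 0 after 72 h. The 4 B cell genes stayed at 2.61 CPM or less at every time, with MS4A1 at or near 0. Whether these shifts bear on the loss of the 66 genes was not tested. In bulk RNA, fewer cells that express a gene and less RNA per cell cannot be told apart.

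K562 cells carry parts of several blood programmes at once: red cell genes such as haem enzymes and glycophorins, genes of early granulocytes and basophils, and growth genes that the leukaemic tyrosine kinase keeps on through STAT5. Red cell genes are governed largely by GATA1, TAL1 and KLF1. Many fast-growing cells also keep the ATF4 programme active. In it the factor ATF4 switches on enzymes and transporters that supply amino acids, for example asparagine synthetase. Members of the group come from each of these programmes.

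Promoters of 4 members are shown because they hold letter matches to the short ATF4 or GATA element. They also differ in timing: CHAC1 was at or under 50% of its 0.5 h level by 1.5 h, MS4A3 and PKLR by 6 h and ASNS by 24 h. Of the 66 members, 45 had a promoter in the RefSeq table (GRCh38.p14), a window from 250 bases before to 50 bases after the start. Printed are the 250 bases before the start, 5′ to 3′ on the strand of the gene. Capitals mark a match to the ATF4 element TGATGNAA in ASNS and CHAC1 and to the GATA element AGATAA in MS4A3 and PKLR, on either strand. The windows are chr7:97872409-97872658 on the minus strand for ASNS, chr15:40953221-40953470 on the plus strand for CHAC1, chr11:60056415-60056664 on the plus strand for MS4A3 and chr1:155301439-155301688 on the minus strand for PKLR.
ASNS: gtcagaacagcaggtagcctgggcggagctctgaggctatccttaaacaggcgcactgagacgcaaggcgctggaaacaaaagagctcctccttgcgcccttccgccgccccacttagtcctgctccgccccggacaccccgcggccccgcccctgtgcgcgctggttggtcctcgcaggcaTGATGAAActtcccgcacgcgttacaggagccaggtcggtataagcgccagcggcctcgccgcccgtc
CHAC1: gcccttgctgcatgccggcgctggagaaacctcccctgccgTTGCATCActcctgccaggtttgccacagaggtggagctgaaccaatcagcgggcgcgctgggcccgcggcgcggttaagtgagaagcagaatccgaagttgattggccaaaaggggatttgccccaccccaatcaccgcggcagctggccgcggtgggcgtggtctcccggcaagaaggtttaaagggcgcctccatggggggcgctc
MS4A3: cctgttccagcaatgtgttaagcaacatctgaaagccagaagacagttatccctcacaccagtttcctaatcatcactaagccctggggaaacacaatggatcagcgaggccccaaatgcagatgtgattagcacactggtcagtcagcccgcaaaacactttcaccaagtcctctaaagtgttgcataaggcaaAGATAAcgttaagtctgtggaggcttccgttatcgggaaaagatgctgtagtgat
PKLR: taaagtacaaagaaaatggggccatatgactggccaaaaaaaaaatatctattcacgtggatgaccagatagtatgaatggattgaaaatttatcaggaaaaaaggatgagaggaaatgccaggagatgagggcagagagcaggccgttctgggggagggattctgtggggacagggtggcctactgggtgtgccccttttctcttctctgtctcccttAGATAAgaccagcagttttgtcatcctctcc
The ATF4 match begins 68 bases before the start in ASNS and 209 before it in CHAC1, where it lies on the opposite strand. The GATA match begins 55 bases before the start in MS4A3 and 31 before it in PKLR.

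Among the 45 promoters, the ATF4 element TGATGNAA was found in 7 (15.6%), against 1.54% of the promoters of 7663 other genes at 10 CPM or more at 0 h and 3.67% of all 27305 promoters. The 7 were ASNS, CHAC1, FUT1, GYPB, IL20RB, KLHDC7B and S100P, of which ASNS and CHAC1 are on the amino acid list. This element was added after the members were known. The GATA element AGATAA was also found in 7 (15.6%, against 4.48% and 10.5%), namely FYB1, GYPB, IL20RB, KLHDC7B, MS4A3, MYO16 and PKLR. It contains the 4 letters GATA, which alone were found in 55.6% of the members, 37.1% of the other expressed genes and 50.5% of all promoters. The ETS element CGGAAG was in 11.1% of the members, against 37.2% of the other expressed genes and 19.9% of all promoters. The SP1 element GGGCGG was in 55.6%, against 72.0% and 44.6%. No member held the STAT element TTCNNNGAA in this window, which was in 6.16% of the other expressed genes. Both strands were searched for all 15 elements, a match is not evidence of binding, and no test was made.

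**Figure D1:**
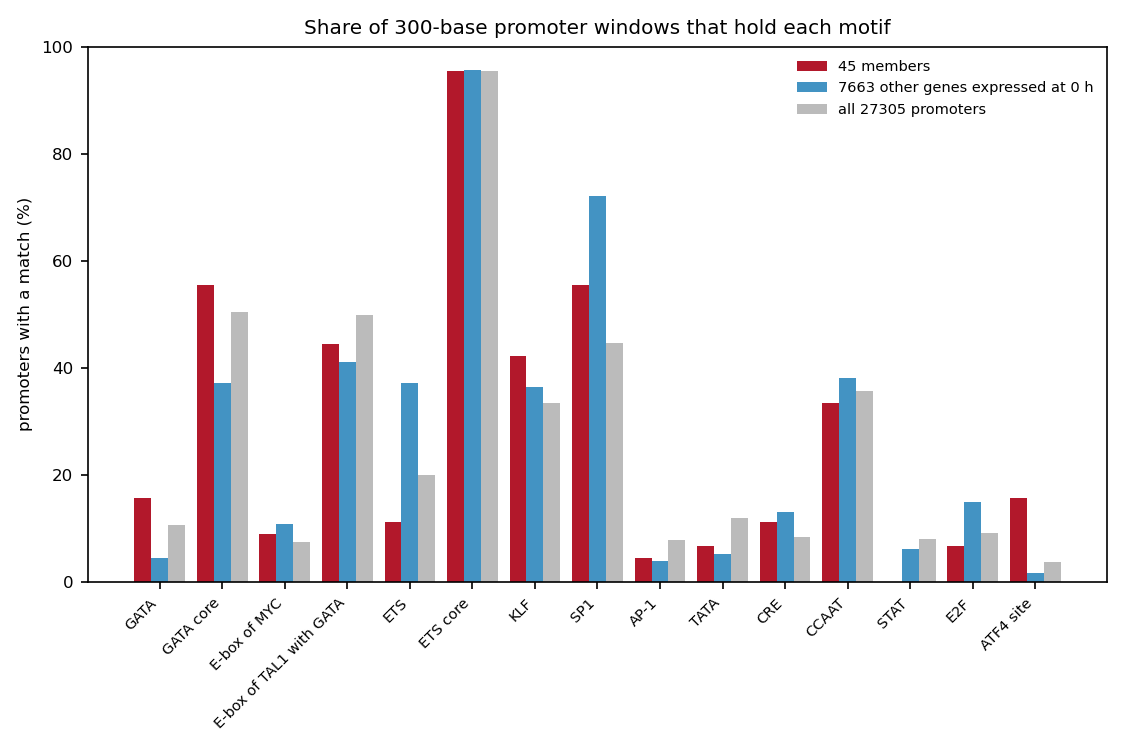
Bars give the percent of 300-base promoter windows that hold each of 15 elements (y axis, 0 to 100%), for 45 members, 7663 other genes at 10 CPM or more at 0 h and all 27305 RefSeq promoters. The members' bars stand above both others at the GATA element AGATAA and the ATF4 element (15.6% each). They do so too at the letters GATA alone (55.6%) and the KLF element CCACCC (42.2%). The KLF element was in 36.5% of the other expressed genes and 33.4% of all promoters. The members' bars stand below both others at the ETS element CGGAAG (11.1%) and at the CCAAT (33.3%), E2F (6.67%) and STAT (0%) elements.

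Together the 66 genes took 0.814% and 0.872% of the reads of the 0 h libraries. Their share was 0.803% and 0.814% after 0.5 h, 0.733% and 0.747% after 1.5 h, 0.572% and 0.537% after 3 h, and 0.218% and 0.202% after 6 h. From 24 h on it lay between 0.0582% and 0.0643%. In percentage points, the largest single step was thus between 3 and 6 h. As a proportion of the share before it, the fall between 6 and 24 h was larger, over a longer interval. At 0 h the members ranged from 13.3 CPM for GYPB to 856 CPM for PIM1, with a median of 58.7 CPM. The median member stood at 91.9% of its 0 h level at 0.5 h, 79.8% after 1.5 h, 57.2% after 3 h and 13.7% after 6 h. The median of the 9241 other genes expressed at 0 h stood at 75.4% after 6 h.

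At 72 h the members held between 0.300% (MS4A3) and 14.9% (CPZ) of their 0 h level. Among the lowest were MS4A3, MS4A4A (0.672%), KLHDC7B (1.01%), HEPACAM2 (1.14%), PKLR (1.25%), EIF3CL (1.44%), S100P (1.53%), JDP2 (2.21%) and SCN4A (2.42%). In all 66 genes every library of 24, 48 and 72 h lay below both 0 h libraries, as it did in 42.1% of all 9307 genes expressed at 0 h. The limit of 0.15 was met by 1.42% of those 9307 genes at 24 h, 0.935% after 48 h and 1.01% after 72 h. Of the members, LRRC8D, TET1, PPM1E, RHOXF2B and CPZ lay closest under the limit, with a highest late level of 14.4%, 14.4%, 14.4%, 14.7% and 14.97% of 0 h. DEUP1, CLGN, NME4, the gene ENSG00000254979 and CALB1 lay just outside it, at 15.03%, 15.1%, 15.1%, 15.4% and 15.4%. The edge of the group is therefore not a gap in the data.

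**Figure D2:**
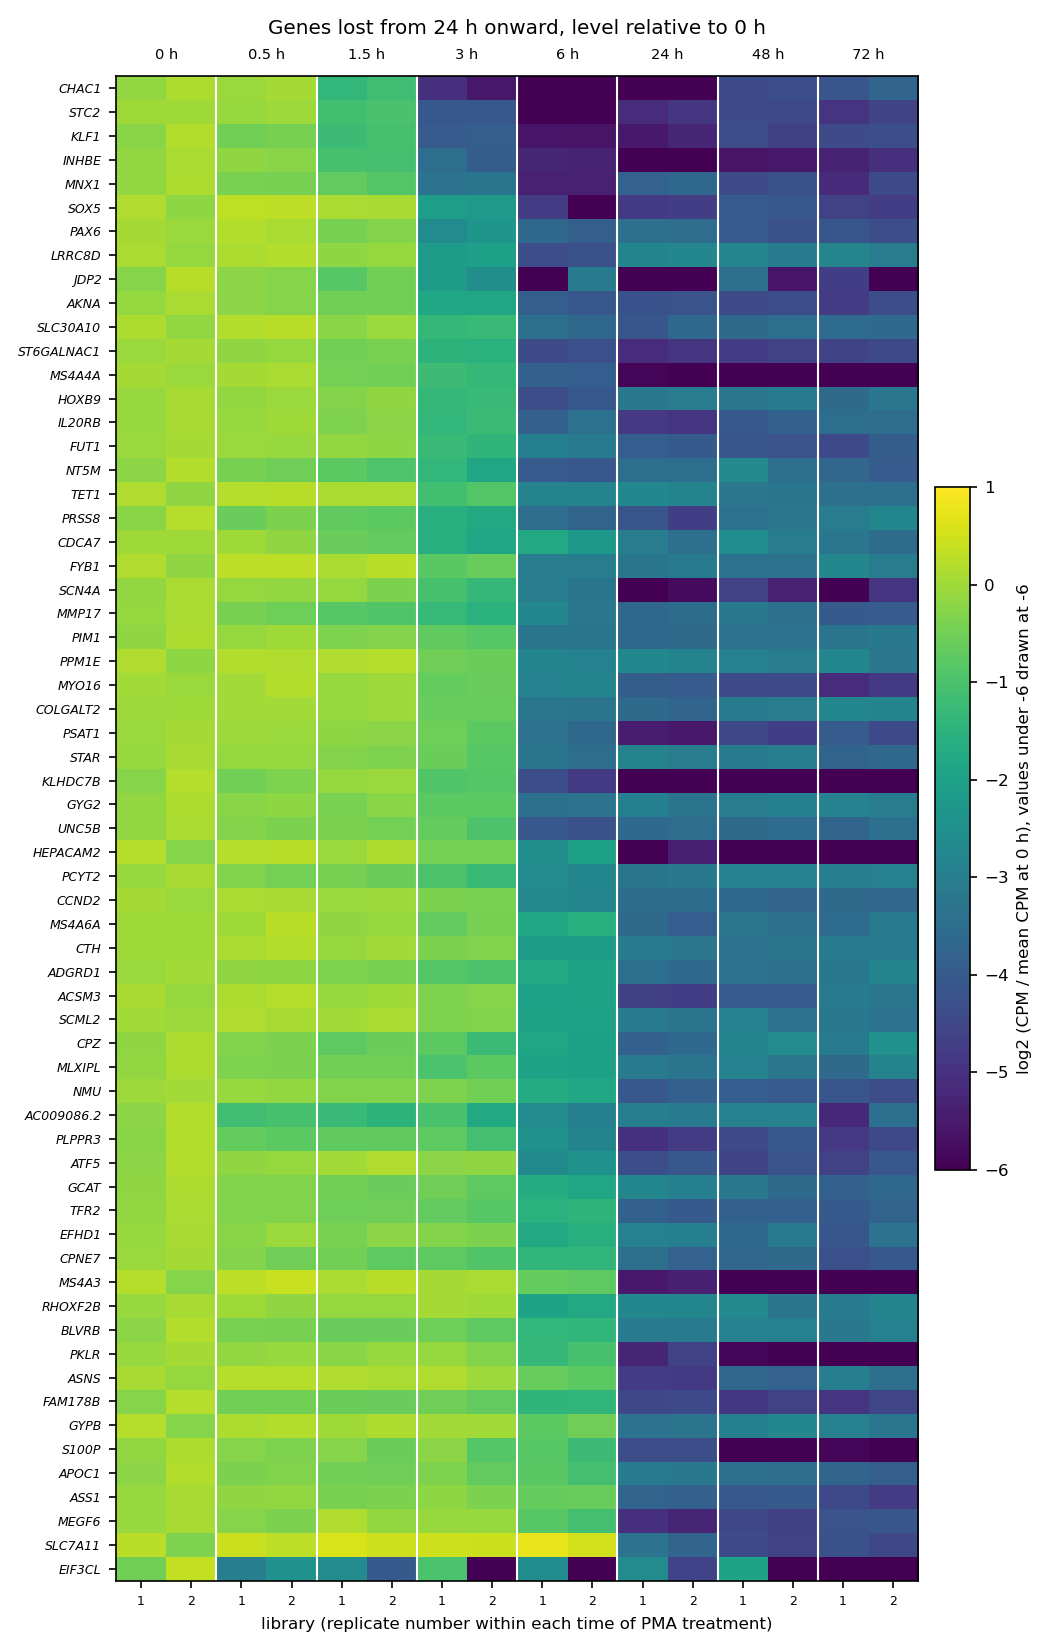
Each row is 1 of 63 members and each column a library, grouped by hours of PMA, with the colour giving log2 of CPM relative to the gene's mean at 0 h (values under -6 drawn at -6), and genes ordered by what was left at 3 and 6 h. The upper rows (CHAC1, STC2, KLF1) are dark by 3 h, most of the rest by 6 h, and rows near the bottom (SLC7A11, MEGF6, ASS1, APOC1) not before 24 h.

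Between 0.5 and 1.5 h, 5 of the 66 genes fell and none rose. Of all genes tested, 1.67% were called lower and 4.11% higher, and of the other genes expressed at 0 h, 1.77% and 3.34%. The 5 were CHAC1 (log2 fold change -1.17 (SE 0.22, adjusted p = 0.00574)), STC2, INHBE, KLF1 and PAX6. Between 1.5 and 3 h, 26 fell and none rose, against 12.1% lower and 13.0% higher of all genes and 17.2% and 14.3% of the other expressed genes. The largest called falls of this step were in CHAC1 (-3.81), STC2 (-2.82) and KLF1 (-2.63). Between 3 and 6 h, 59 fell and none rose, against 22.1% lower and 19.0% higher of all genes and 29.3% and 24.9% of the other expressed genes. The largest here were KLHDC7B (-3.61), UNC5B (-3.32) and SOX5 (-3.06). Over the whole span from 0.5 to 6 h, 60 fell and 1, SLC7A11, rose, against 28.3% lower and 26.6% higher of all genes and 36.5% and 31.2% of the other expressed genes. The median member changed by -2.34 on the log2 scale over that span, the median of all genes by 0.01.

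The largest falls from 0.5 to 6 h were in CHAC1 (-6.22 (SE 0.33, adjusted p = 1.91e-09)), STC2 (-5.65 (SE 0.16, adjusted p = 5.34e-12)), SOX5 (-5.27 (SE 0.25, adjusted p = 5.58e-10)), KLF1 (-4.80 (SE 0.20, adjusted p = 1.78e-10)) and INHBE (-4.73 (SE 0.19, adjusted p = 1.36e-10)). In 64 members both 6 h libraries lay below both 0.5 h libraries, as they did in 65.6% of the other expressed genes. The 5 members without a call were EIF3CL, S100P, MEGF6, APOC1 and ASS1, whose log2 fold changes ran from -0.53 to -0.14. Scaling to total counts moved the median of all genes by -0.33 from 0.5 to 6 h, and 64 members were then called lower and none higher. Over all genes that scaling gave 7177 lower and 3099 higher calls, against 4963 and 4668. For 1.5 to 3 h it gave 3847 and 1572, against 2128 and 2280. Leaving out the second 3 h library took the members lower from 1.5 to 3 h from 26 to 17, and leaving out any library of 0.5 or 1.5 h took those lower from 0.5 to 1.5 h from 5 to 1 or 2.

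**Figure D3:**
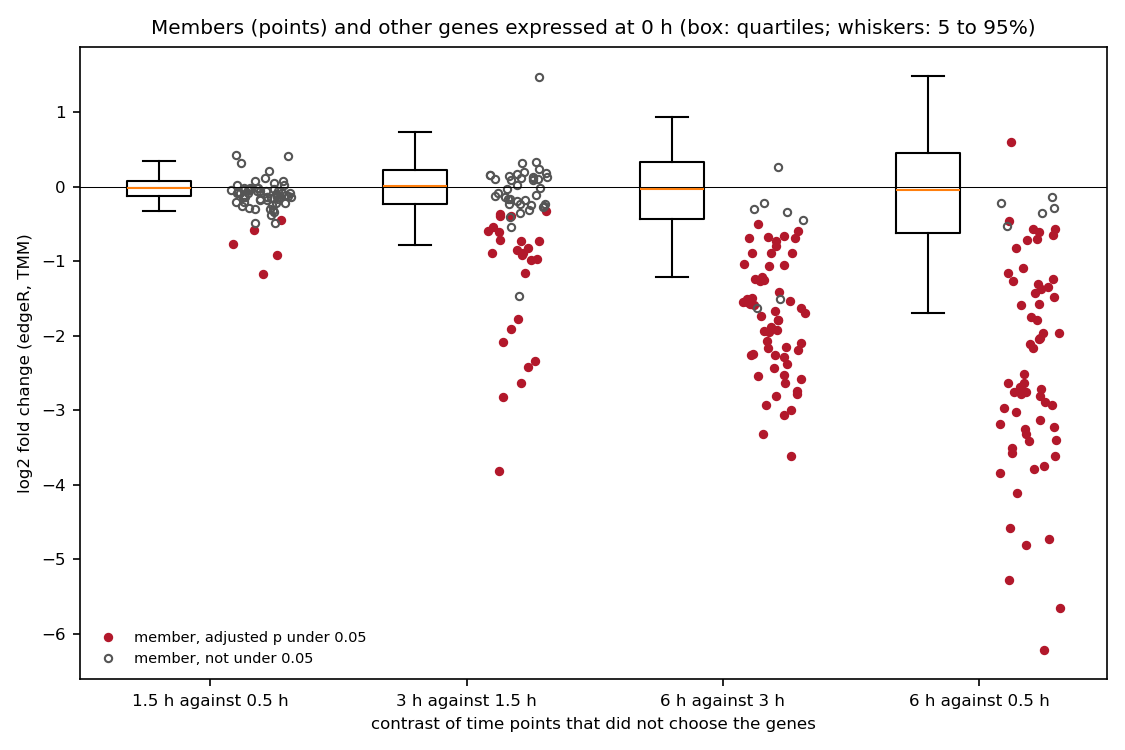
Log2 fold changes (y axis, edgeR with TMM scaling) in 4 contrasts among libraries that did not choose the genes, with each member as a point, filled where its adjusted p was under 0.05. Boxes show the quartiles and whiskers the 5 to 95% range of 9241 other genes expressed at 0 h. The median member goes from -0.11 at 1.5 against 0.5 h to -1.62 at 6 against 3 h and -2.34 at 6 against 0.5 h.

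The members left in sequence. Against the 0.5 h mean, 1 member (CHAC1) was at or under 50% by 1.5 h, 21 more by 3 h, 33 more by 6 h and 10 more by 24 h. Of the other expressed genes, 0.151% were at or under 50% after 1.5 h, 8.94% after 3 h and 23.6% after 6 h. The 10 late ones were ASNS, SLC7A11, BLVRB, APOC1, FAM178B, CPNE7, MEGF6, S100P, ASS1 and GYPB, which mix amino acid, red cell and lipid genes. Of the 3 steps tested up to 6 h, INHBE, PAX6, STC2, KLF1 and CHAC1 fell in all. In the last 2 of these steps 20 members fell, and 34 were called lower only between 3 and 6 h. The step from 6 to 24 h was not tested. Some of the 34, such as ASNS, MS4A3 and PKLR, read lower still at 24 h, while UNC5B did not. CDCA7 was called only between 1.5 and 3 h, and 6 members (SLC7A11, EIF3CL, APOC1, S100P, ASS1 and JDP2) in no single step.

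**Figure D4:**
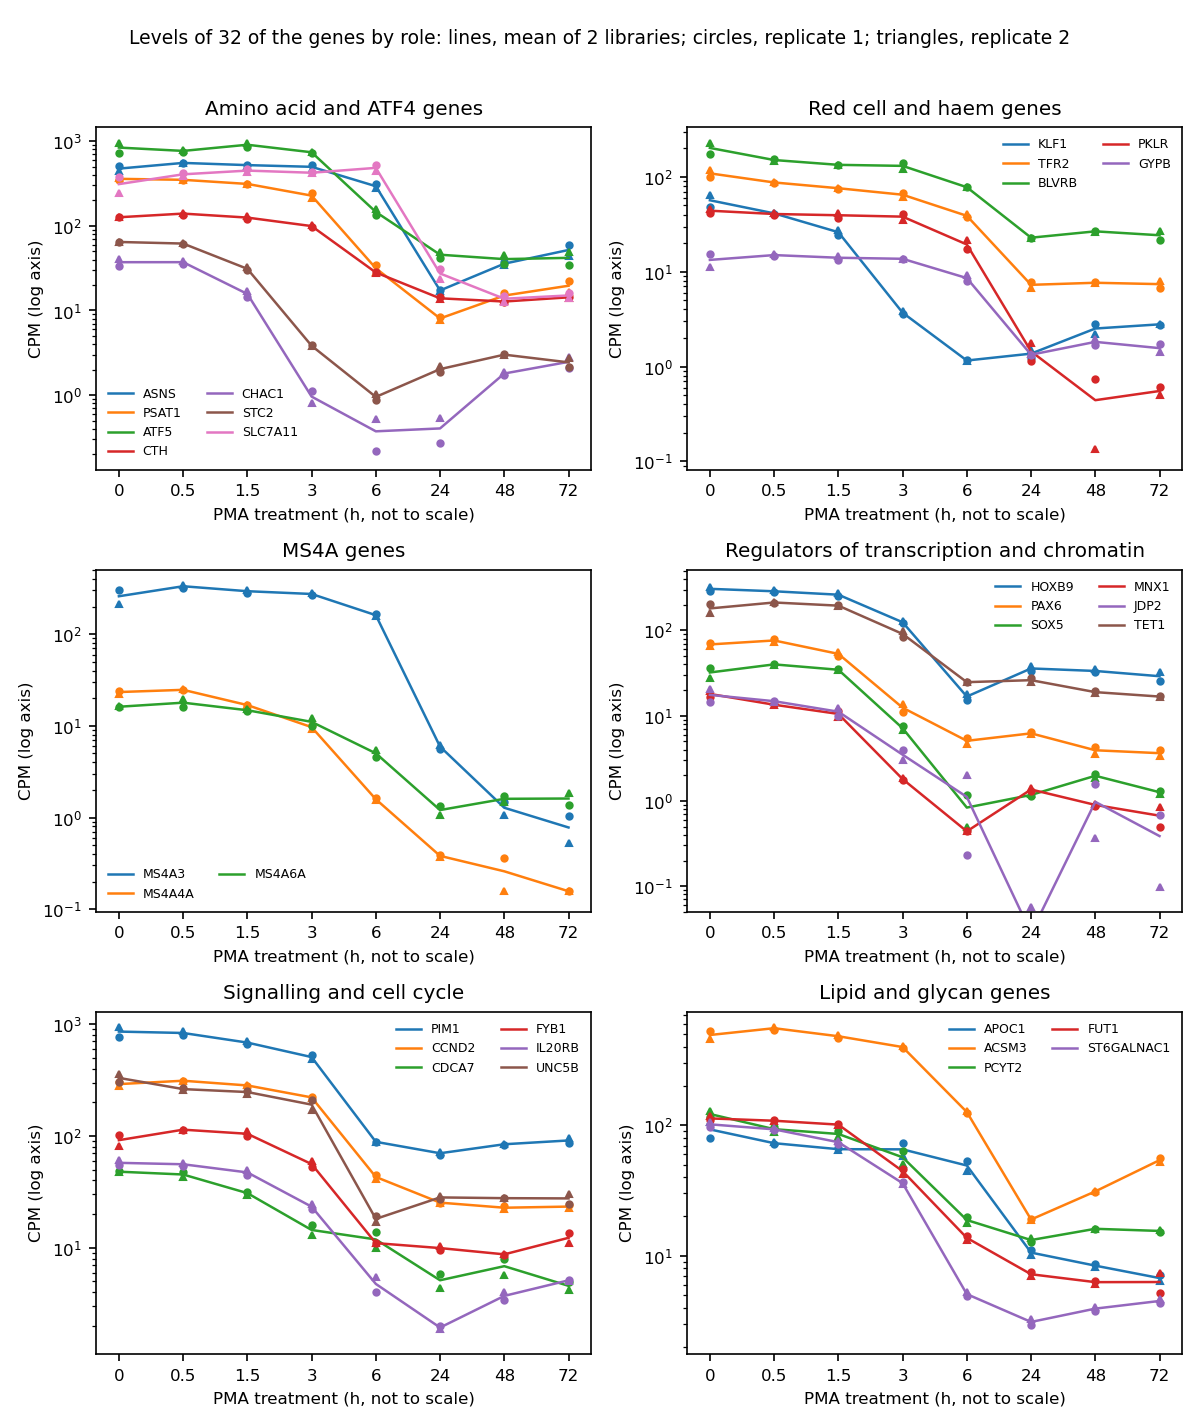
CPM on a log axis against hours of PMA (not to scale) for 32 members in 6 panels by role, with lines through the mean of 2 libraries, circles for replicate 1 and triangles for replicate 2; a library at 0 reads (JDP2 after 24 h) is not drawn. CHAC1, STC2, KLF1, SOX5 and MNX1 are at their lowest or nearly so by 6 h, while SLC7A11, MS4A3 and PKLR keep much of their level at 6 h and drop by 24 h.

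Of the 10 gene lists, that of amino acid supply and the ATF4 response held the most members by number, while 45 members are on no list. As a share of its expressed genes, the granulocyte and basophil list held more (3 of 7). Of 45 listed genes of this kind, 42 were expressed at 0 h and 7 are members: ASNS, PSAT1, CTH, SLC7A11, ATF5, CHAC1 and STC2. From 0.5 to 6 h, 37 of the 42 fell and 2 rose (36.5% and 31.2% of the other expressed genes were called lower and higher), and among the 35 that are not members 31 fell and 1 rose, with a median of -1.34. The 35 stood at a median of 26.1% of 0 h at 6 h, 27.1% after 24 h and 35.4% after 72 h. PHGDH, which acts just before PSAT1 in serine synthesis, was at 259.9 CPM at 0 h, 14.8 after 24 h and 41.6 after 72 h. ATF4 itself was at 358, 83.7 and 200.1 CPM. The list was drawn up with earlier results of these data known, so its counts describe these libraries and are no separate evidence.

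ASNS makes asparagine from aspartate. ASNS stood at 506 and 443 CPM at 0 h, 551 and 558 after 0.5 h, 529.6 and 514 after 1.5 h, 530.1 and 467 after 3 h and 309 and 279 after 6 h. ASNS then read 17.7 and 16.8 CPM after 24 h, 37.1 and 34.4 after 48 h and 59.4 and 44.3 after 72 h. The gene was not called in the steps up to 3 h, fell by 6 h (-0.57 (SE 0.14, adjusted p = 0.00329) from 0.5 h), and had its lowest libraries at 24 h, with both 72 h libraries above both 24 h ones. PSAT1, an enzyme of serine synthesis, left earlier and by 6 h was at 34.8 and 28.2 CPM, down from 351 and 349 after 0.5 h (-3.13 (SE 0.16, adjusted p = 1.92e-09)). It too was lowest at 24 h (8.28 and 7.83) and read 22.5 and 16.7 after 72 h. CTH, which makes cysteine from cystathionine, went from 136 and 144 CPM after 0.5 h to 28.2 and 28.1 after 6 h (-1.96 (SE 0.09, adjusted p = 3.15e-10)) and stayed between 12.6 and 14.4 CPM from 24 h on. GCAT, which releases glycine from threonine breakdown and was not on the list, went from 47.7 and 47.5 to 18.8 and 16.4 CPM (-1.09 (SE 0.15, adjusted p = 2.06e-05)).

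SLC7A11, the cystine importer that feeds glutathione synthesis, went the other way first. SLC7A11 stood at 378 and 244 CPM at 0 h, 426 and 387 after 0.5 h, 469 and 430.2 after 1.5 h, 427 and 421 after 3 h and 525 and 444 after 6 h. SLC7A11 then read 31.0 and 23.7 CPM after 24 h, 14.96 and 12.6 after 48 h and 16.2 and 13.9 after 72 h. Both 6 h libraries lay above both 0.5 h libraries, and the gene rose over that span (0.60 (SE 0.17, adjusted p = 0.00815)). With scaling to total counts the rise was 0.25 with adjusted p = 0.245, and it was not called without the second 0.5 h library or without the first 6 h library. Between 6 and 24 h its mean went from the highest of the course to 8.79% of the 0 h mean. SLC3A2, its partner chain, stood at 324 CPM at 0 h, 151 after 6 h and 126 after 72 h. ASS1, an enzyme of arginine synthesis, was likewise late, at 28.5 and 31.7 CPM at 0 h, 19.1 and 19.4 after 6 h and 2.24 and 2.07 after 24 h, with no call from 0.5 to 6 h (-0.14 (SE 0.13, adjusted p = 0.396)).

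CHAC1, which breaks down glutathione, was the fastest of all. CHAC1 stood at 33.7 and 40.7 CPM at 0 h, 35.6 and 38.8 after 0.5 h, 14.4 and 16.9 after 1.5 h, 1.13 and 0.797 after 3 h and 0.220 and 0.527 after 6 h. CHAC1 then read 0.272 and 0.536 CPM after 24 h, 1.73 and 1.87 after 48 h and 2.11 and 2.84 after 72 h. The 1.5 h libraries already lay below all earlier ones, and at 6 h only 6.00 and 18.00 estimated reads were left. STC2, a secreted glycoprotein, followed the same course: 60.5 and 63.1 CPM after 0.5 h, 29.8 and 32.3 after 1.5 h, 3.87 and 3.80 after 3 h and 0.880 and 1.03 after 6 h. INHBE, a subunit of the activin family that was not on the list, read 83.1 and 78.4, 45.5 and 44.4, 8.48 and 6.08 and 2.41 and 2.34 CPM at those times. ATF5, a stress-response factor, was not called in the steps up to 3 h. ATF5 stood at 721 and 962 CPM at 0 h, 753 and 784 after 0.5 h, 865 and 953 after 1.5 h, 731 and 750.2 after 3 h and 134 and 158 after 6 h. ATF5 then read 41.9 and 49.3 CPM after 24 h, 35.8 and 45.1 after 48 h and 34.3 and 49.5 after 72 h. Of the tested steps, it was called only between 3 and 6 h, lower by 2.26 on the log2 scale (adjusted p = 7.24e-07). Both 24 h libraries lay below both 6 h libraries, a step that was not tested.

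Of 54 listed red cell genes, 39 were expressed at 0 h and 4 are members, among them TFR2, BLVRB and GYPB. KLF1, a master regulator of red cell genes, and PKLR, the liver and red cell pyruvate kinase, belong here by function. From 0.5 to 6 h, 25 of the 39 fell and 1 rose, with a median of -0.60, against 36.5% lower and 31.2% higher of the other expressed genes. The 35 that are not members stood at a median of 48.6% of 0 h at 6 h, 39.3% after 24 h and 44.0% after 72 h.

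KLF1 stood at 48.3 and 65.3 CPM at 0 h, 40.5 and 42.0 after 0.5 h, 24.5 and 27.7 after 1.5 h, 3.54 and 3.86 after 3 h and 1.17 and 1.14 after 6 h. KLF1 then read 1.24 and 1.50 CPM after 24 h, 2.81 and 2.23 after 48 h and 2.74 and 2.84 after 72 h. KLF1 fell in each tested step, and its 6 h and 24 h libraries did not overlap any library of 3 h or before. Of the factors that work with it, GATA1 went from 142 CPM at 0 h to 8.13 after 6 h and was back at 129 after 72 h. TAL1 read 198, 117 and 226 CPM and LMO2 28.0, 6.46 and 38.1 at those times, so KLF1 stayed low while these were near or above their 0 h level. Among 32 expressed factors of blood progenitors on a list, 21 fell and 7 rose from 0.5 to 6 h (against the same 36.5% and 31.2%), and only KLF1 and JDP2 are members. The other 30 were at a median of 26.1% of 0 h at 6 h and 71.6% after 72 h.

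TFR2, the second transferrin receptor, read 87.1 and 87.9 CPM after 0.5 h, 37.6 and 40.2 after 6 h and 7.76 and 6.80 after 24 h (-0.82 (SE 0.12, adjusted p = 4.96e-05) from 0.5 to 6 h). BLVRB, which reduces biliverdin, read 153 and 148, 78.4 and 77.5 and 22.95 and 22.8 at those times (-0.60 (SE 0.14, adjusted p = 0.00187)). Both kept a sizeable part of their level at 6 h and were at a plateau from 24 h on.

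PKLR was among the members with the least left at 72 h. PKLR stood at 41.9 and 46.2 CPM at 0 h, 40.0 and 41.3 after 0.5 h, 37.2 and 41.8 after 1.5 h, 40.9 and 35.4 after 3 h and 17.4 and 21.4 after 6 h. PKLR then read 1.13 and 1.76 CPM after 24 h, 0.747 and 0.136 after 48 h and 0.606 and 0.499 after 72 h. The fall from 0.5 to 6 h (-0.71 (SE 0.24, adjusted p = 0.0235)) was not called without either 0.5 h library or without the first 6 h library (adjusted p = 0.0772 to 0.176). PKM, the pyruvate kinase of most other tissues, read 429 CPM at 0 h, 1563 after 24 h and 903 after 72 h. GYPB, a glycophorin of the red cell surface, read 14.6 and 15.3 CPM after 0.5 h, 7.89 and 9.26 after 6 h and 1.32 and 1.35 after 24 h, and its call from 0.5 to 6 h (-0.45 (SE 0.17, adjusted p = 0.0366)) was lost in 4 of the alternatives (adjusted p = 0.0525 to 0.27). GYPB is nearly identical to relatives such as GYPE, between which reads can be split wrongly, so its level is uncertain.

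MS4A3, MS4A4A and MS4A6A encode related membrane proteins with 4 spans and lie in a cluster on chromosome 11 (GRCh38), at 60056587-60071128, 60185702-60317944 and 60172014-60184666. MS4A6A and MS4A4A are 1.04 kb apart, and MS4A3 lies 101 kb from MS4A6A. They were the only members within 500 kb of each other. MS4A3 marks granulocyte and basophil precursors and acts on the cell cycle. MS4A3 stood at 304 and 214 CPM at 0 h, 321 and 345 after 0.5 h, 281 and 307 after 1.5 h, 269.9 and 279 after 3 h and 165 and 157 after 6 h. MS4A3 then read 5.65 and 6.22 CPM after 24 h, 1.49 and 1.06 after 48 h and 1.03 and 0.530 after 72 h. The gene was not called in the steps up to 3 h, fell by 6 h (-0.70 (SE 0.16, adjusted p = 0.00189) from 0.5 h), and was at 2.29% of 0 h at 24 h. The 48 and 72 h libraries lay below both 24 h libraries, a step that was described and not tested.

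MS4A4A left earlier than MS4A3: 24.4 and 25.0 CPM after 0.5 h, 16.9 and 16.8 after 1.5 h, 10.2 and 9.16 after 3 h, 1.61 and 1.55 after 6 h and 0.158 and 0.156 after 72 h, with -3.61 (SE 0.18, adjusted p = 1.14e-09) from 0.5 to 6 h. MS4A6A read 16.2 and 19.6, 14.4 and 15.2, 10.1 and 12.1, 4.600 and 5.43 and 1.38 and 1.84 CPM, with -1.48 (SE 0.16, adjusted p = 2.37e-06). At 72 h MS4A3, MS4A4A and MS4A6A held 0.300%, 0.672% and 9.98% of their 0 h level. Of the other genes of the cluster, MS4A2, a chain of the IgE receptor that was below the 10 CPM limit, went from 5.56 CPM at 0 h to 0.879 after 72 h, while MS4A7 (3.22 and 2.85) and MS4A10 (7.18 and 5.13) kept most of theirs. Of 44 listed granulocyte and basophil genes, 7 were expressed at 0 h and 3 are members (MS4A3, MS4A4A and MS4A6A). The 4 that are not members stood at a median of 92.3% of 0 h at 72 h.

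Other members act in transcription and chromatin. HOXB9, a homeobox factor, was an early and deep loss. HOXB9 stood at 290.4 and 325 CPM at 0 h, 280.4 and 295 after 0.5 h, 250.3 and 275 after 1.5 h, 122 and 127 after 3 h and 15.4 and 18.1 after 6 h. HOXB9 then read 33.7 and 37.9 CPM after 24 h, 32.1 and 34.8 after 48 h and 25.6 and 32.5 after 72 h. It fell from 1.5 h on (-3.75 (SE 0.14, adjusted p = 8.64e-11) from 0.5 to 6 h), was lowest at 6 h, and all 6 later libraries lay above both 6 h libraries. Its neighbour HOXB8 also ended low (16.9 CPM at 0 h, 1.86 after 72 h), whereas HOXB7, HOXB6 and HOXB2 read 5.48, 0.662 and 20.6 CPM after 6 h and 11.7, 9.93 and 43.6 after 72 h, near their 0 h means of 11.7, 8.60 and 40.2. The annotated HOXB7 gene overlaps HOXB9 on the same strand, so some of its reads are uncertain.

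SOX5, PAX6 and MNX1 are developmental factors better known from neurons and other tissues. SOX5 read 35.0 and 34.1 CPM after 1.5 h, 7.52 and 6.74 after 3 h and 1.17 and 0.498 after 6 h. PAX6 read 78.6 and 73.9 after 0.5 h, 50.5 and 55.7 after 1.5 h, 11.1 and 13.7 after 3 h and 5.50 and 4.64 after 6 h. MNX1 read 11.2 and 9.76 after 1.5 h, 1.77 and 1.84 after 3 h and 0.440 and 0.440 after 6 h. All 3 had lost most of their level by 3 h, with no overlap between the 1.5 and 3 h libraries. JDP2, a repressor of the AP-1 family, read 15.01 and 14.6 CPM after 0.5 h and 0.234 and 2.00 after 6 h (-3.31 (SE 0.68, adjusted p = 0.000901)), and at 24 h it had 0 and 3.05 estimated reads, the second just above the 3 reads a count of 0 allows.

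TET1, which oxidises methylated cytosine, read 211 and 214 CPM after 0.5 h, 83.9 and 98.1 after 3 h, 24.8 and 24.6 after 6 h and 16.9 and 16.6 after 72 h (-2.75 (SE 0.10, adjusted p = 4.51e-11) from 0.5 to 6 h). Its relatives went otherwise: TET3 read 126 CPM at 0 h, 373 after 6 h and 222 after 72 h, and TET2 53.7, 60.3 and 68.4. SCML2, a Polycomb group protein, fell between 3 and 6 h, from 36.8 and 37.5 to 12.1 and 11.9 CPM. AKNA, an AT-hook protein, went from 221 and 218 CPM after 1.5 h to 87.8 and 83.4 after 3 h and 20.8 and 17.9 after 6 h, and fell in both steps. MLXIPL, the carbohydrate-response factor, read 39.7 and 39.4 CPM after 0.5 h and 13.4 and 12.5 after 6 h (-1.26 (SE 0.16, adjusted p = 1.63e-05)). RHOXF2B, a homeobox gene of the X chromosome, is nearly identical to RHOXF2 (217 CPM at 0 h, 47.7 after 72 h) and its own level is uncertain.

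Signalling and cell cycle genes included the member with the most reads, PIM1, a kinase that STAT5 switches on. PIM1 stood at 769 and 943 CPM at 0 h, 799 and 864 after 0.5 h, 664 and 701 after 1.5 h, 524 and 489 after 3 h and 88.1 and 88.9 after 6 h. PIM1 then read 67.9 and 72.0 CPM after 24 h, 83.3 and 85.1 after 48 h and 86.6 and 95.4 after 72 h. PIM1 fell between 3 and 6 h (-2.44 (SE 0.13, adjusted p = 8.94e-09)) and then stayed level, with the 72 h libraries above those of 24 h. PIM2 was at 154 CPM at 0 h, 31.9 after 6 h and 59.9 after 72 h, and PIM3 at 33.7, 169 and 42.5. Of 24 expressed STAT5 and cytokine genes on a list, 13 fell and 9 rose from 0.5 to 6 h (against 36.5% lower and 31.2% higher of the other expressed genes), and the 22 that are not members stood at a median of 123% of 0 h at 72 h. PIM1 and CCND2 are the 2 members.

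CCND2, a D-type cyclin that drives entry into the cell cycle, read 312 and 310.2 CPM after 0.5 h, 224 and 218 after 3 h, 44.7 and 41.2 after 6 h and 24.1 and 22.6 after 72 h (-2.51 (SE 0.09, adjusted p = 7.48e-11) from 0.5 to 6 h). The other D-type cyclins went the other way: CCND1 read 15.7 CPM at 0 h, 154 after 24 h and 396 after 72 h, and CCND3 102, 142 and 195. CDCA7, a chromatin protein linked to DNA methylation, was the only member on a list of DNA replication and cell cycle genes, of which 51 were expressed, and 31 fell and 5 rose from 0.5 to 6 h (against 36.5% and 31.2%). CDCA7 read 31.7 and 29.9 CPM after 1.5 h, 15.9 and 12.9 after 3 h and 13.9 and 9.88 after 6 h. Its 3 and 6 h libraries overlapped, and the fall was called from 1.5 to 3 h (-0.89 (SE 0.19, adjusted p = 0.00298)).

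UNC5B, a netrin receptor, read 210.3 and 170.3 CPM after 3 h and 19.2 and 17.1 after 6 h (-3.32 (SE 0.16, adjusted p = 4.17e-09)), and both 6 h libraries lay below every later one. FYB1, an adaptor of immune receptor signalling, read 98.7 and 110.1 CPM after 1.5 h, 52.6 and 59.3 after 3 h and 10.9 and 11.1 after 6 h. IL20RB, a chain of the receptors for interleukins of the IL-20 family, read 44.9 and 49.3, 22.1 and 24.5 and 3.996 and 5.50 at those times. Both fell in the last 2 steps. NMU, the peptide neuromedin U, read 126 and 115 CPM after 3 h, 49.3 and 46.2 after 6 h and 9.40 and 11.3 after 24 h, with a fall from 3 to 6 h of 1.26 on the log2 scale (adjusted p = 2.35e-06). ADGRD1, an adhesion receptor, PPM1E, a protein phosphatase, and S100P, a calcium-binding protein, changed from 0.5 to 6 h by -1.35, -2.71 and -0.35 on the log2 scale, the last without a call (adjusted p = 0.253).

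Of 30 expressed sterol and lipid genes on a list, 14 fell and 11 rose from 0.5 to 6 h, with a median of -0.33, and 2 are members, among them APOC1. Of the other expressed genes, 36.5% fell and 31.2% rose, so these shares are not far from the background. APOC1, an apolipoprotein, was late: 71.6 and 74.3 CPM after 0.5 h, 53.5 and 44.8 after 6 h and 11.01 and 10.1 after 24 h, with no call from 0.5 to 6 h (-0.22 (SE 0.16, adjusted p = 0.265)). Its neighbour APOE read 75.6 CPM at 0 h and 37.7 after 72 h.

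ACSM3, a mitochondrial enzyme that activates medium-chain fatty acids, had the most reads of a member after PIM1 and ATF5. ACSM3 stood at 526 and 459.7 CPM at 0 h, 541 and 571 after 0.5 h, 469 and 495 after 1.5 h, 389 and 407 after 3 h and 124 and 129 after 6 h. ACSM3 then read 19.1 and 18.8 CPM after 24 h, 30.9 and 31.3 after 48 h and 56.1 and 52.0 after 72 h. Its low point was at 24 h, and the libraries of 24, 48 and 72 h lay in rising order without overlap, the last at 10.97% of 0 h. PCYT2, of phosphatidylethanolamine synthesis, read 97.5 and 89.3 CPM after 0.5 h, 63.2 and 50.6 after 3 h and 19.8 and 17.8 after 6 h (-1.97 (SE 0.14, adjusted p = 3.54e-08) from 0.5 to 6 h). STAR, which moves cholesterol into mitochondria, read 81.6 and 68.0 CPM after 3 h and 12.4 and 10.6 after 6 h (-2.63 (SE 0.13, adjusted p = 7.32e-09)). Among sugar-modifying enzymes, FUT1, which makes the H blood group antigen, read 103 and 99.9 CPM after 1.5 h, 46.6 and 42.5 after 3 h and 14.3 and 13.1 after 6 h. ST6GALNAC1, a sialyltransferase, read 72.3 and 76.2, 36.6 and 35.3 and 4.90 and 5.25. COLGALT2, a collagen galactosyltransferase, read 203 and 214, 141 and 142 and 22.9 and 21.8. All 3 of these enzymes fell in both steps.

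Of the other members, LRRC8D, a subunit of the volume-regulated anion channel, read 75.9 and 79.6 CPM after 1.5 h, 19.1 and 20.7 after 3 h and 4.25 and 4.51 after 6 h (-4.11 (SE 0.14, adjusted p = 2.03e-11) from 0.5 to 6 h), and both 6 h libraries lay below every later one. SLC30A10, a manganese exporter, and SCN4A, a muscle sodium channel, fell in the same 2 steps and changed by -3.40 and -2.69 from 0.5 to 6 h. MYO16, a myosin, changed by -2.63. The enzymes GYG2 (glycogenin) and NT5M (a mitochondrial nucleotidase) changed by -2.80 and -3.22. EFHD1 and CPNE7, calcium-binding proteins, changed by -1.16 and -0.64. The secreted or surface proteases PRSS8, MMP17 and CPZ changed by -2.78, -2.16 and -1.23. HEPACAM2, an adhesion molecule, PLPPR3, a membrane protein related to lipid phosphatases, KLHDC7B and FAM178B changed by -2.11, -1.58, -3.79 and -0.57. Each of these passed the test, FAM178B not without the first 6 h library (adjusted p = 0.0501). MEGF6, a protein with EGF-like repeats, changed by -0.28 without a call (adjusted p = 0.0717).

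The levels of 24 and 72 h, which the rule used, are set side by side as a description. In 22 of the members both 72 h libraries lay above both 24 h libraries, in 27 both lay below, and in 17 the libraries overlapped. Of the other expressed genes, 26.5% had both 72 h libraries above and 33.1% both below, so the members' shares are near the background. The highest ratios of 72 h to 24 h were those of JDP2, CHAC1, ASNS, ACSM3 and PRSS8. ASNS went from 17.3 to 51.9 CPM, ACSM3 from 18.9 to 54.03, CHAC1 from 0.404 to 2.47 and PRSS8 from 0.920 to 2.61. JDP2 had 0 reads in 1 of its 24 h libraries and read 0.676 and 0.0985 CPM after 72 h. MS4A3 and MS4A4A went on down, with both 72 h libraries below both 24 h libraries. None came back to more than 0.15 of its 0 h level, which the rule required.

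The transcripts of these genes are also a description, since a gene could meet the rule only if the transcripts that make up most of its reads were low. The 66 genes have 549 annotated transcripts in the files, of which 304 had at least 1 TPM at 0 h, a level that corrects for transcript length. Of these, 198 were at or under 15% of their 0 h TPM at all 3 late times, and 12, in 8 genes, were over 50% at some late time. In 42 genes a single transcript held 50% or more of the gene's TPM at 0 h, and in 58 the most abundant transcript was protein coding. Per length, the highest members at 0 h were ATF5 at 705 TPM, PIM1 at 545 and ACSM3 at 423, with MS4A3 at 359. The main transcript of MS4A3 went from 172 TPM at 0 h to 0.797 after 72 h, that of PIM1 from 442 to 53.6, and that of ASNS from 115 to 2.84 after 24 h and 8.62 after 72 h. Of the 12, the one with the largest share of its gene was a transcript of FAM178B without a coding product, which held 8.64% of that gene's TPM at 0 h and stood at 16.3 TPM at 0 h and 10.7 after 72 h. The main transcript of MLXIPL, a retained intron with 23.9% of the gene's TPM at 0 h, went from 11.4 TPM at 0 h to 3.58 after 24 h and 4.01 after 72 h. How the reads of 1 gene were divided among its transcripts is itself an estimate.

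In features that the rule did not use, the members were close to the other genes expressed at 0 h except in base composition. Their median transcript length was 2052 against 2256 nt, their median number of exons 7.34 against 7.41 (averaged over the transcripts of a gene) and their median gene length 27.9 against 34.3 kb. Their median GC content was 54.9% against 48.3%. They were spread over the genome, with at most 7 on a chromosome (chromosome 1), and no member was on the lists of ribosome assembly, cancer-testis or megakaryocyte genes. These are descriptions without a test.

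For 4 members the level is uncertain because a near-identical or overlapping gene shares their reads: EIF3CL, AC009086.2, RHOXF2B and GYPB. EIF3CL, a copy of the translation factor gene EIF3C, read 116 and 208 CPM at 0 h, 20.3 and 29.4 after 0.5 h, 82.7 and 1.14 after 3 h, 27.1 and 0.871 after 6 h, 41.6 and 1.36 after 48 h and 2.43 and 2.24 after 72 h. Its replicates were far apart at 3, 6 and 48 h and close at 72 h, it was already at 15.3% of 0 h at 0.5 h, and it was not called in any step. Against 0.5 h instead of 0 h it stood at 66.5% after 24 h and 86.4% after 48 h. EIF3C read 596 CPM at 0 h and 375 after 72 h. AC009086.2 overlaps QPRT and SPN on the same strand and was at 15.1 and 20.2 CPM at 0 h and 8.02 and 8.68 after 0.5 h. Without these 4, the members lower in the 4 contrasts numbered 5, 26, 56 and 57. Reads of IL20RB and CPZ may also include some from NCK1 and GPR78, which overlap them on the same strand. At 0 h NCK1 and GPR78 had a mean of 527 and 114 estimated reads, against 1688 and 417 for IL20RB and CPZ. On the other strand, ASH2L, ELP4, NUP62, TRIM37, ANAPC11 and THUMPD1 overlap STAR, PAX6, ATF5, PPM1E, PCYT2 and ACSM3. Reads of these members may include some from those genes, since the sources used here do not say that strand was used in counting.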

How the data were processed

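RNA from 16 K562 libraries was sequenced, 2 at each of 8 times of PMA. The deposited tables hold, per the file headers, an estimated number of reads (estimated count) and a TPM value for each of 177456 transcripts in a library. The submitters' processing notes name Trim Galore 0.4.3 and Salmon and the builds hg19 and hg38, without saying which build was used for what. Of the transcripts, 167027 (94.1%) matched the GENCODE annotation of GRCh38 by Ensembl identifier. The 10429 others, with 3.01 to 3.75% of a library's reads, were left out.

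From these deposited values, estimated counts were summed per gene. CPM is that sum over the library sum, and chose the genes. For tests the sums were rounded and fitted with edgeR 4.0.16 (R 4.3.3, TMM, default low-count filter, quasi-likelihood) over all 16 libraries, with no block. All 66 members passed the filter, which their 0 h level alone could ensure. With only the libraries of 0.5 to 6 h, all 66 passed as well. Fitted log2 fold changes use TMM scaling, so they can differ from ratios of CPM. In counts simulated for 6 h against 0.5 h over 17051 genes, the test recovered 66% of 2-fold and 93% of 4-fold changes, and 7 of 166 calls were false. Only 200 genes were changed there, and the simulated spread depended on a gene's level alone. In the real contrast 4963 genes were called lower and 4668 higher, so these rates need not hold for it. Floors in CPM cover counting error only, while the SEs come from the fit and include its estimate of the spread between libraries.

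The members, gene lists, relatives and promoter elements were chosen with earlier results of these data known. The naming rule took members with the highest 0 h level, the lowest 72 h level, the largest fitted changes, a place on a list, a member within 500 kb, or a place at the limit of 0.15. The remaining members are named to account for the group, except 3 that are counted in every total but not reported by name here, and the relatives were picked after the members were seen. Alternatives were other size factors, total-count scaling, DESeq2 1.42.0, other low-count filters, counts derived from TPM, a replicate block, fewer libraries, a GC correction and other limits of the rule.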

Additional observations from a re-analysis of the deposited data

How the results depend on the processing

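The number of genes in the group depended on its limits. A ratio of at most 0.10 gave 36 genes and one of at most 0.20 gave 103. TMM-scaled CPM gave 54, summed TPM 47 (44 of them shared), a 0 h minimum of 5 CPM 82 and of 20 CPM 50, and the replicates taken alone 64 and 80. The members lower from 0.5 to 1.5 h numbered 5, but 3 at an adjusted p under 0.01, 1 with counts derived from TPM, and 1 to 2 with a library left out. Those lower from 1.5 to 3 h numbered 17 to 30 with a library left out, with 17 lacking the second 3 h library, and 39 with total-count scaling. Those lower from 3 to 6 h numbered 53 to 62 and from 0.5 to 6 h 58 to 60 with a library left out. Where a time point was left with 1 library, that library was assumed to vary like the other groups. With the replicate number as a block, 6, 26, 59 and 60 members were lower in the 4 contrasts, and 1 was higher from 0.5 to 1.5 h, where none was without it. In single steps 1 member was also called higher from 1.5 to 3 h with no low-count filter or without the second 3 h library, and from 3 to 6 h with only the 0.5 to 6 h libraries. Deviations of same-numbered libraries mostly went together, but not throughout. Their correlations ran from -0.30 to 0.60 with a median of 0.27, and 4 of 28 pairs were under 0.1. The number was not taken as a pairing. Fragment length, estimated from the deposited values, was 210 to 221 nt in the first libraries from 0.5 h on. In the second libraries it was 229 to 248 nt, and at 0 h it was 217 and 199 nt. Whether this bears on the levels was not tested. Of the values of single members from 0.5 to 6 h under the alternatives, 830 kept direction and call, 11 lost the call (FAM178B, GYPB, PKLR, SLC7A11), 7 gained it (APOC1, ASS1, EIF3CL, MEGF6, S100P) and 1 turned, EIF3CL, which ran from -4.43 without the first 6 h library to 0.45 without the second. The cause of these shifts was not tested.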
